A study of Homo sapiens with 2 samples.

Results

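The hypoxia genes examined here are the hypoxia-inducible factors (HIF), the enzymes and the ligase adaptor that sense oxygen for them, and non-glycolytic genes that HIF is known to induce. They are a list of 35 genes whose rule uses no measured value, although the list was drawn up with earlier results of these data known, and all 35 were found among the 41582 gene symbols of the table. The cells were U87, a human glioblastoma line that is long established in culture, and 1 library was sequenced per condition. The control library came from cells given DMSO, the vehicle, and the treated library came from cells given CCA-1.1, a curcumin analog, both for 72 h. Both cultures were labelled wild type and were grown in RPMI with 10% serum at 5% CO2. No low-oxygen culture was described for either, and the CCA-1.1 concentration used for sequencing is not given in the sources used here. No replicate stands behind any difference, so no p-value is given.

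HIF is a heterodimer of an oxygen-sensitive alpha subunit (HIF1A or EPAS1) and a stable partner, ARNT. When oxygen is present, the prolyl hydroxylases EGLN1, EGLN2 and EGLN3 mark the alpha subunit, VHL binds the mark and the subunit is degraded, while HIF1AN hydroxylates an asparagine and keeps coactivators away. When oxygen falls, the alpha subunit accumulates, enters the nucleus and binds short hypoxia response elements near target genes such as VEGFA and CA9, and in glioblastoma this response is best known around necrotic zones. The control acts mainly on the protein, so the mRNA of HIF1A does not report how much HIF protein a cell holds, and no protein was measured here.

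The values are TPM (a unit per kilobase of transcript and per library total, so that genes of different length can be set side by side), summed over the transcripts of each gene. Differences are log2 ratios of TPM + 1 (CCA-1.1 over DMSO), which makes differences of low genes look smaller than they are, and positive values are higher in the CCA-1.1 library. The read depth is unknown, since TPM does not keep it, and no interval for counting error is given. Of the labelled cell type's markers, VIM was at 3217 TPM with DMSO and 3106 TPM with CCA-1.1. CD44 was at 607.4 and 472.6 TPM (a log2 difference of -0.36, past 1.2-fold). Of the glial and progenitor markers, OLIG2 was at 5.64 and 7.03 TPM (a log2 difference of 0.27, past 1.2-fold), NES at 7.53 and 7.62 TPM and SOX2 at 1.87 and 1.45 TPM, while GFAP (0.41 and 0.57 TPM) and S100B (0 in both) were at or near 0. The summed TPM of 3 immune markers was 1.91 with DMSO and 1.61 with CCA-1.1, that of 3 endothelial markers 3.93 and 3.23, that of 2 epithelial markers 0.34 and 0.22, and that of 3 neuronal markers 35.2 and 30.8. Of the neuronal markers, SNAP25 (-0.37) and RBFOX3 (0.29) passed 1.2-fold in opposite directions, and SYT1 (0.02) did not. In the immune list CD3E was at 0 in both libraries, and the part of these levels in the results was not tested.

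The core that HIF recognises is ACGTG or GCGTG, and the promoters of the genes that differed most are shown so that the letters before their start sites can be read beside the values that follow. WSB1 and BHLHE40 had the largest positive differences, and ADM and CA12 the largest negative ones, among genes averaging 10 TPM or more with a matched promoter. CA9 and BNIP3 are added as well-known HIF targets, a choice made after values were seen. Each line gives the 250 bases before the RefSeq start site on GRCh38.p14, 5′ to 3′ on the strand of the gene, and the capitals mark ACGTG or GCGTG on either strand, with overlapping matches joined.
WSB1 (chr17:27293864-27294113, plus strand): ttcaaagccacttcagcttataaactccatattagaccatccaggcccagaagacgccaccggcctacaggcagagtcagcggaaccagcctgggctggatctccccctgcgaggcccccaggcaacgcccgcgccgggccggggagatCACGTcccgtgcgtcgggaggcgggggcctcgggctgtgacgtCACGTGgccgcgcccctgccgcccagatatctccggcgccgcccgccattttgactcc
BHLHE40 (chr3:4979187-4979436, plus strand): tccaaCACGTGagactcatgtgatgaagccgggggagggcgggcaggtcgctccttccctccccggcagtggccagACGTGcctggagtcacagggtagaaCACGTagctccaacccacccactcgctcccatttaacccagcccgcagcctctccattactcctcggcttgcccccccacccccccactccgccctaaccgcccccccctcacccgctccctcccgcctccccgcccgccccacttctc
ADM (chr11:10304823-10305072, plus strand): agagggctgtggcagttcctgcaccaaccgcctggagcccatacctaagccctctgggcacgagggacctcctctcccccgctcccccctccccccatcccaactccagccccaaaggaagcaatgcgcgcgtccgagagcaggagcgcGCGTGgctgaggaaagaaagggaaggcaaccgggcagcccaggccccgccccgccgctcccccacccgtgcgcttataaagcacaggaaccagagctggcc
CA12 (chr15:63381847-63382096, minus strand): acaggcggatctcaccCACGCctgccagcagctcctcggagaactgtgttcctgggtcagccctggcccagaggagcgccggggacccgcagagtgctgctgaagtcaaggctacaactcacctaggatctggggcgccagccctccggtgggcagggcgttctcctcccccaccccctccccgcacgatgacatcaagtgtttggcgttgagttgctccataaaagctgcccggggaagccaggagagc
CA9 (chr9:35673678-35673927, plus strand): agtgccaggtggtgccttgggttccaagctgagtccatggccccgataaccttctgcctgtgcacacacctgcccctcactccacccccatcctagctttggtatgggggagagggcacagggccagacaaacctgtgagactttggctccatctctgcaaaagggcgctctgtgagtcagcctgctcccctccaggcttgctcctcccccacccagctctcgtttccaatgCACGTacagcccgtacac
BNIP3 (chr10:131981924-131982173, minus strand): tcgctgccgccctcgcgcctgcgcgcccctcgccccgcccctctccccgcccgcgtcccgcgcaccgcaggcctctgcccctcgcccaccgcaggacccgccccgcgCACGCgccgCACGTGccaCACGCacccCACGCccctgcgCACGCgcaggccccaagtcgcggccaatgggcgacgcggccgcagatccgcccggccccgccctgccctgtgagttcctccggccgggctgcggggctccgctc

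BNIP3 carried 5 marked stretches in its 250 bases, BHLHE40 carried 3, WSB1 carried 2, and ADM, CA12 and CA9 carried 1 each. The CA9 stretch lay 18 to 14 bases before the start. In WSB1, BHLHE40 and BNIP3, 1 stretch read CACGTG, which holds ACGTG on both strands and was counted once. A promoter window was matched for 27 of the 35 genes, and 22 of these (81.5%) held at least 1 stretch in at least 1 of their windows. The share was 62.3% of the 11444 genes tested here that have a window, and 43.2% of all 35116 windows. STC1, LOXL2, BNIP3L, ZNF395 and NDRG1, all on chromosome 8, were not matched, and neither were VEGFA, VHL and JMJD6. A match describes letters and is no evidence of binding. The median difference was -0.0063 over the 22 genes with a stretch and 0.10 over the 5 without, while over all genes tested with a window it was 0.02 with a stretch and 0.03 without. The 5 without were EGLN3, HIF1AN, MIF, TMEM45A and P4HA2, from -0.18 to 0.26, and their median is the value of MIF alone. Both groups mix sensors with targets, and a link between stretches and differences was not tested.

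Across the 35 hypoxia genes the 2 libraries were close. Of the 35, 18 were higher and 17 were lower in the CCA-1.1 library, with a median difference of 0.0067 against 0.03 over the 15485 genes tested, those averaging 1 TPM or more. The sign of this median is not stable, since it was -0.02 with median-ratio scaling and -0.04 with curated transcripts only, with mRNA transcripts only or with a minimum mean of 10 TPM, and the genes higher numbered 16 with that scaling and 15 with curated transcripts. Among the genes tested, 56.1% were higher and 43.8% were lower. All 35 hypoxia genes passed that minimum, and 31 averaged 10 TPM or more. None differed by more than 2-fold, a size passed by 1.89% of the genes tested upward and 1.67% downward. None differed by more than 1.5-fold either, which 4.23% passed upward and 2.82% downward.

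A difference of more than 1.2-fold, 0.26 on the log2 scale, was found in 7 of the 35. WSB1, BHLHE40, ZNF395 and BNIP3 had higher values in the CCA-1.1 library, and ADM, CA12 and STC1 were lower. These are 11.4% of the 35 upward and 8.57% downward, near the 15.5% and 9.3% of all genes tested. The same 7 were found among the 31 genes averaging 10 TPM or more, or 12.9% upward and 9.68% downward, beside 9.45% and 7.01% of all 8589 such genes. BNIP3 (0.27) lay just past this size, and HIF1AN (0.26) and LOXL2 (-0.26) lay just short of it. With TPM scaled by the median ratio of the genes tested, the split was 3 higher and 4 lower, BNIP3 leaving and LOXL2 entering. With a pseudocount of 0.1 TPM, 6 were higher, HIF1AN (0.29) and ANKRD37 (0.27) entering. With curated transcripts only, 4 were lower, KDM4B (-0.28) entering, and with mRNA transcripts only, 3 were higher, WSB1 leaving. ADM, CA12 and STC1 lay below the 5th percentile of all genes tested (-0.40), and none of the 35 lay above the 95th (0.53). That range is wider than the one of genes averaging 10 TPM or more, whose 5th and 95th percentiles were -0.31 and 0.36. Against those, BHLHE40 (0.40) and WSB1 (0.47) lay above the 95th, and ADM, CA12 and STC1 again lay below the 5th.

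**Figure D1:**
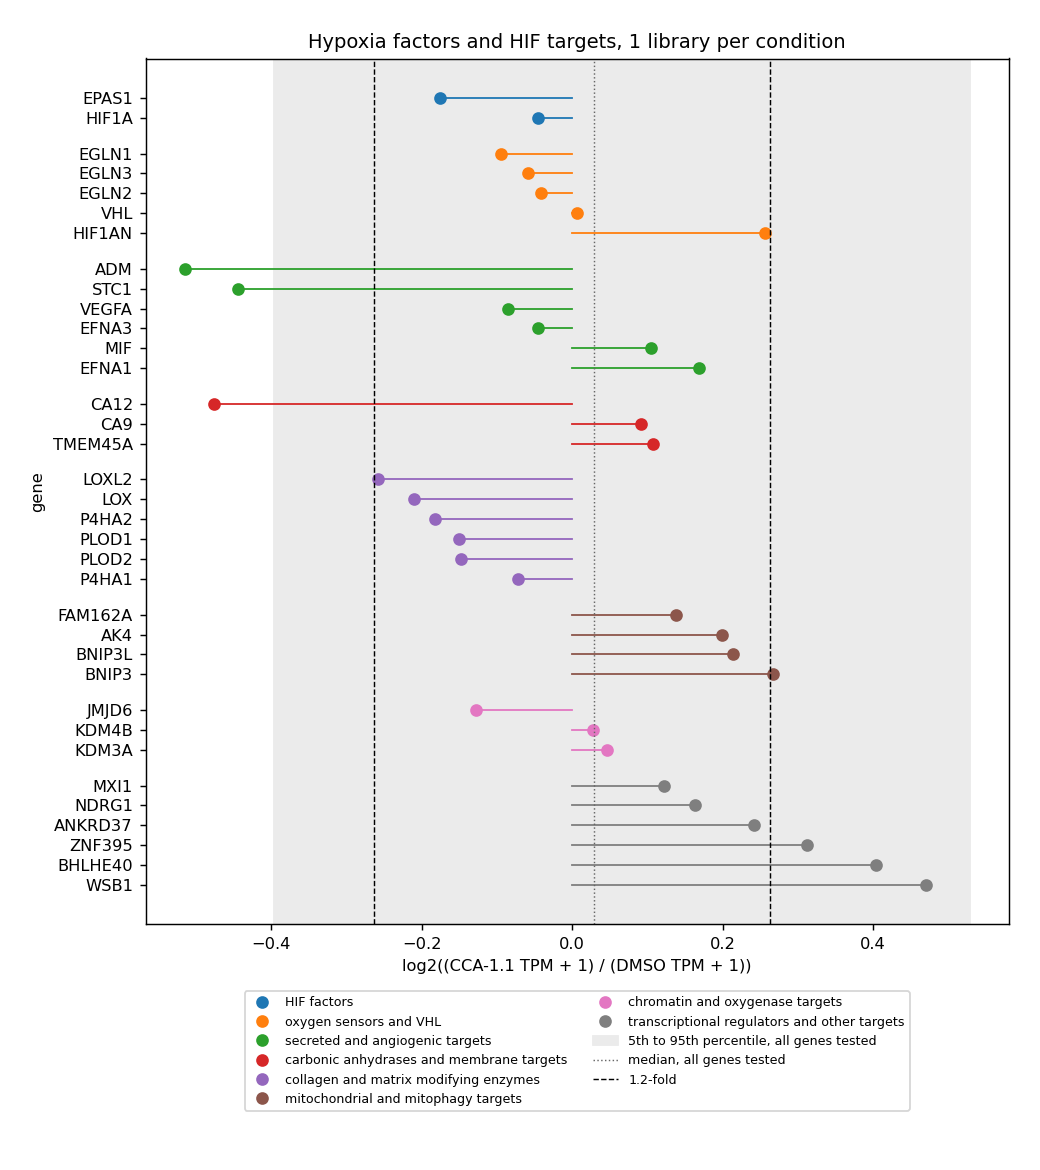
Difference between the libraries, log2((CCA-1.1 TPM + 1) / (DMSO TPM + 1)), for each of the 35 hypoxia genes, grouped by role, with 1 library per condition. The band spans the 5th to 95th percentile of all genes tested, and the dashed lines mark 1.2-fold. ADM, CA12 and STC1 lie left of the band and the other genes lie within it. For genes averaging 10 TPM or more the same percentiles are -0.31 and 0.36 (not drawn), and BHLHE40 and WSB1 lie right of the latter. All 6 matrix enzymes lie left of 0 and all 4 mitochondrial targets lie right of it. The groups by role were assigned here, and a shared direction within a group was not tested.

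Both HIF alpha subunits were abundant as mRNA. HIF1A (Entrez 3091, chromosome 14 from 61695513 to 61748258 of GRCh38.p14) was at 533.6 TPM with DMSO and 517.1 TPM with CCA-1.1, a difference of -0.05. Its main transcript NM_001530.4 was at 498.7 and 477.9 TPM, while NM_181054.3 (19.6 and 21.1 TPM) and NM_001243084.2 (15.3 and 18.1 TPM) were slightly higher in CCA-1.1. EPAS1, the gene of HIF-2 alpha, was at 408.2 TPM with DMSO and 361.2 TPM with CCA-1.1, a difference of -0.18. Both factors were thus lower in the CCA-1.1 library by less than 1.2-fold, beside 43.8% of all genes tested that were lower. HIF1A overlaps 3 antisense RNA genes, which stayed at or under 2.90 TPM in both libraries.

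Of the oxygen sensors, the prolyl hydroxylase EGLN2 had the highest level, at 55.7 TPM with DMSO and 54.1 TPM with CCA-1.1, a difference of -0.04. EGLN1, the main HIF prolyl hydroxylase in most cells, was at 33.2 and 31.1 TPM (-0.09). EGLN3, itself induced by HIF, was at 4.51 and 4.29 TPM (-0.06). All 3 were lower in CCA-1.1 by less than 0.10 on the log2 scale, beside 43.8% of all genes tested that were lower. For EGLN1 this came from its minor transcripts. Its main transcript NM_022051.3 was at 26.55 TPM with DMSO and 27.03 TPM with CCA-1.1 (0.02). VHL, the substrate receptor of the ubiquitin ligase, was at 26.8 TPM with DMSO and 26.9 TPM with CCA-1.1, a difference of 0.0067. HIF1AN, the asparagine hydroxylase, stood apart from these, with 5.58 TPM with DMSO and 6.86 TPM with CCA-1.1, a difference of 0.26. Its level is low, and with a pseudocount of 0.1 in place of 1 TPM HIF1AN passed 1.2-fold, at 0.29. EGLN2 shares its region with the read-through gene RAB4B-EGLN2, at 4.39 and 4.84 TPM.

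Among secreted and angiogenic targets, the largest difference of the 35 genes was that of ADM, which encodes the vasodilator peptide adrenomedullin (Entrez 133, chromosome 11 from 10305073 to 10307397). ADM was at 713.6 TPM with DMSO and 499.1 TPM with CCA-1.1, a difference of -0.51. STC1, on chromosome 8, encodes the secreted glycoprotein stanniocalcin-1 and was at 84.4 TPM with DMSO and 61.8 TPM with CCA-1.1, a difference of -0.44. Each has 1 transcript in the table, so no division of reads among transcripts of the gene enters these values. VEGFA, the main angiogenic growth factor under HIF, was at 193.1 TPM with DMSO and 181.9 TPM with CCA-1.1, a difference of -0.09. MIF, a cytokine that restrains macrophage migration, had the highest mean level of the 35 genes and was at 816.0 and 877.5 TPM (0.10). The membrane-bound ephrin ligands were lower expressed. EFNA1 was at 1.97 TPM with DMSO and 2.34 TPM with CCA-1.1 (0.17), and EFNA3 was at 12.96 and 12.53 TPM (-0.05). In all, 4 of these 6 genes were lower and 2 were higher, beside 43.8% and 56.1% of all genes tested. Their median was -0.07.

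The 2 carbonic anhydrases, which hydrate CO2 and regulate pH at the cell surface, gave different values. CA9, a textbook marker of hypoxia, was at 119.1 TPM with DMSO and 127.0 TPM with CCA-1.1, a difference of 0.09. CA12 (Entrez 771, chromosome 15 from 63321378 to 63381846) was at 139.56 TPM with DMSO and 100.01 TPM with CCA-1.1, a difference of -0.48. CA12 was thus above CA9 in the DMSO library and below it in the CCA-1.1 library. Both main CA12 transcripts were lower in CCA-1.1, NM_001218.5 at 82.8 and 53.0 TPM and NM_206925.3 at 54.9 and 45.2 TPM. TMEM45A, a transmembrane protein, was at 30.1 and 32.5 TPM (0.11), and over curated transcripts only its difference was -0.04.

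**Figure D2:**
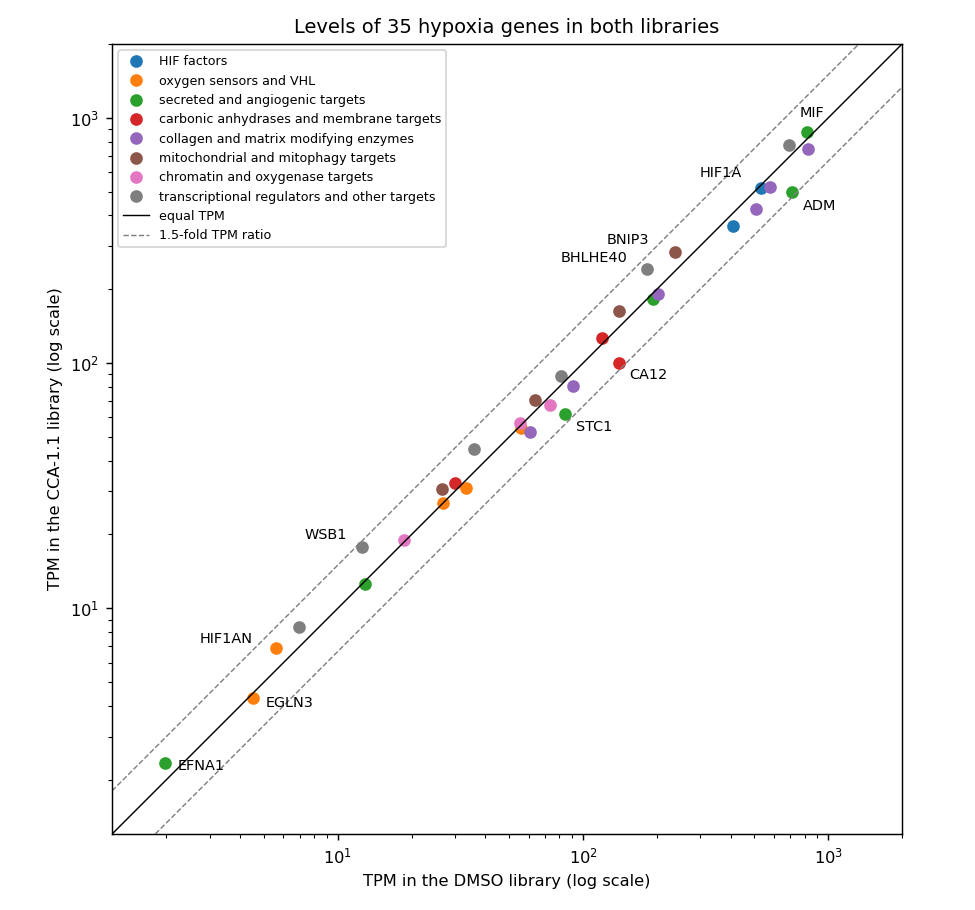
TPM of each of the 35 hypoxia genes in the DMSO library (x axis) and the CCA-1.1 library (y axis), both on log scales, with 1 point per gene coloured by role. The solid line marks equal TPM and the dashed lines a 1.5-fold ratio of TPM; all points lie between the dashed lines, from EFNA1 at 1.97 and 2.34 TPM to MIF at 816.0 and 877.5 TPM.

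The enzymes that modify collagen and matrix were all lower in the CCA-1.1 library, 6 of 6, beside 43.8% of all genes tested. Their differences ran from -0.26 to -0.07, with a median of -0.17. None passed 1.2-fold, a size passed by 15.5% of all genes tested upward and 9.3% downward. All 6 averaged 10 TPM or more, and among all such genes 9.45% passed it upward and 7.01% downward. LOXL2 lay just short of this size and passed it with median-ratio scaling (-0.29). The prolyl hydroxylases of collagen were P4HA1, at 201.7 TPM with DMSO and 191.8 TPM with CCA-1.1 (-0.07), and P4HA2, at 91.2 and 80.3 TPM (-0.18). The lysyl hydroxylases, which prepare collagen for crosslinking, were among the most abundant of the 35 genes. PLOD1 was at 825.4 TPM with DMSO and 743.5 TPM with CCA-1.1 (-0.15), and PLOD2 was at 577.6 and 521.1 TPM (-0.15). The lysyl oxidases, which form the crosslinks, differed most within this group. LOXL2 was at 507.5 TPM with DMSO and 424.4 TPM with CCA-1.1 (-0.26), and LOX was at 60.5 and 52.2 TPM (-0.21). Summed over the 6 genes the level was 2264 TPM with DMSO and 2013 TPM with CCA-1.1. LOX overlaps SRFBP1, which was at 14.2 and 15.5 TPM.

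The targets that act at mitochondria were all higher in the CCA-1.1 library, 4 of 4, beside 56.1% of all genes tested. Their median was 0.21. BNIP3 (Entrez 664, chromosome 10 from 131967684 to 131981923), a receptor that targets mitochondria for autophagy, was at 236.6 TPM with DMSO and 284.8 TPM with CCA-1.1, a difference of 0.27. BNIP3L, its relative with the same role, was at 140.5 and 163.1 TPM (0.21). Both mitophagy receptors were thus higher after CCA-1.1, although only BNIP3 passed 1.2-fold. Upward, 15.5% of all genes tested passed it, and 9.45% of those averaging 10 TPM or more. FAM162A, a mitochondrial protein linked to cell death under hypoxia, was at 63.9 TPM with DMSO and 70.5 TPM with CCA-1.1 (0.14). AK4, an adenylate kinase of the mitochondrial matrix, was at 26.7 and 30.8 TPM (0.20). Within AK4 the transcripts differed in direction, with NM_013410.4 at 11.4 and 16.6 TPM and NM_001005353.3 at 5.40 and 2.97 TPM. Summed over the 4 genes the level was 467.7 TPM with DMSO and 549.2 TPM with CCA-1.1.

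The oxygenase targets were nearly level. The histone lysine demethylase KDM3A was at 55.3 TPM with DMSO and 57.2 TPM with CCA-1.1 (0.05), and KDM4B, of the same enzyme class, was at 18.6 and 19.0 TPM (0.03). Over curated transcripts only, KDM3A was at -0.03 and KDM4B at -0.28, so neither direction holds when the predicted transcripts are left out. JMJD6, a hydroxylase of lysines, was at 73.5 TPM with DMSO and 67.2 TPM with CCA-1.1 (-0.13). JMJD6 overlaps METTL23, which was at 44.0 and 43.8 TPM, and whether the reads were assigned by strand is not given in the sources used here.

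The remaining targets were all higher in the CCA-1.1 library, 6 of 6, beside 56.1% of all genes tested. Their median was 0.28. Of the 6, 3 passed 1.2-fold, beside 15.5% of all genes tested, and 1 of these, WSB1, was lower when its mRNA transcripts alone were counted (-0.22). BHLHE40 (Entrez 8553, chromosome 3 from 4979437 to 4985323), a transcriptional repressor that also acts in the circadian clock, was at 182.9 TPM with DMSO and 242.3 TPM with CCA-1.1, a difference of 0.40. ZNF395, a zinc finger factor, was at 35.8 and 44.7 TPM (0.31). BHLHE40 and ZNF395 each have 1 transcript in the table. MXI1, an antagonist of MYC, was at 81.0 TPM with DMSO and 88.2 TPM with CCA-1.1 (0.12). NDRG1, a stress-responsive gene and a common hypoxia marker, was at 693.4 and 777.0 TPM (0.16). ANKRD37, an ankyrin repeat protein, was at 6.94 TPM with DMSO and 8.39 TPM with CCA-1.1 (0.24). Its neighbour UFSP2, which overlaps it, was at 11.1 and 12.4 TPM, a level above that of ANKRD37 itself.

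WSB1, which encodes a SOCS-box protein of ubiquitin ligases (Entrez 26118, chromosome 17 from 27294114 to 27315926), had the largest positive difference, at 12.6 TPM with DMSO and 17.9 TPM with CCA-1.1 (0.47). The difference lay in the non-coding transcript NR_145520.2, at 7.28 TPM with DMSO and 13.4 TPM with CCA-1.1. The mRNA transcripts of WSB1 together were at 5.32 and 4.41 TPM, a difference of -0.22, so the direction of WSB1 turns when its mRNAs alone are counted. The non-coding transcript held 57.8% of the WSB1 level in DMSO and 75.3% in CCA-1.1. Kallisto divides reads shared by transcripts of a gene by estimation, and this division was not tested.

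At transcript level, the table lists 146 transcripts of the 35 genes, of which 93 had a mean of at least 1 TPM. Past 2-fold, 3 of the 93 (3.23%) were higher and 2 (2.15%) were lower in the CCA-1.1 library, near the 3.66% and 3.38% of all 34503 transcripts with that mean. The higher ones were XM_047445105.1 of KDM3A (1.56 TPM with DMSO and 5.58 TPM with CCA-1.1), XM_047448422.1 of TMEM45A (0.92 and 5.02 TPM) and NM_001374846.1 of NDRG1, listed at 0 in DMSO and at 3.02 TPM with CCA-1.1. Each was a minor transcript of its gene, the largest share being 15.4% of TMEM45A in CCA-1.1. The transcript with the highest mean had the sign of the gene in 33 of 35 genes, the exceptions being EGLN1 and VEGFA. Much of this agreement is built in. In 20 of the 35 that transcript held over 90% of the gene in both libraries, and 9 of these have only 1 listed transcript.

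The lower ones were NM_001025368.3 and NM_001171626.2 of VEGFA, each at 16.6 TPM with DMSO and 4.58 TPM with CCA-1.1. Of the 20 VEGFA transcripts, 18 form 9 pairs whose members share the same value within each library, and these 2 are such a pair, so they count as 1 estimate rather than 2. Together they held 17.2% of the VEGFA level in DMSO and 5.04% in CCA-1.1. The other 18 transcripts summed to 159.9 TPM with DMSO and 172.7 TPM with CCA-1.1, a difference of 0.11. The highest of them, NM_001287044.2, was at 42.7 and 55.2 TPM (0.36). VEGFA as a whole was therefore nearly level while its estimated transcript makeup differed, and without replicates the error of these estimates is unknown.

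**Figure D3:**
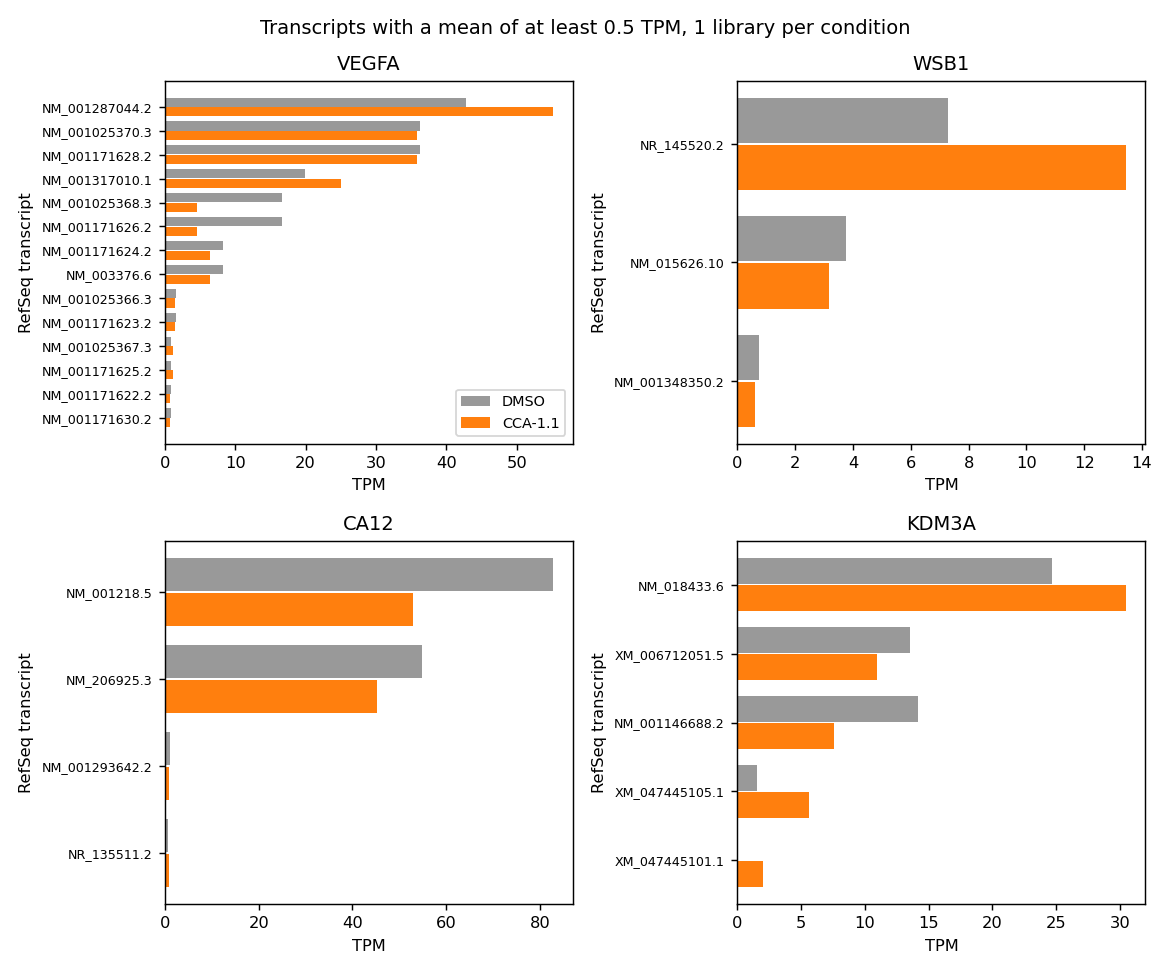
TPM (x axis) of the RefSeq transcripts (y axis) of VEGFA, WSB1, CA12 and KDM3A with a mean of at least 0.5 TPM, in the DMSO library (grey bars) and the CCA-1.1 library (orange bars), 1 library each. The VEGFA pair at 16.6 TPM in DMSO stands at 4.58 TPM with CCA-1.1, the non-coding WSB1 transcript is higher in CCA-1.1 while the mRNAs shown are lower, and both main CA12 mRNAs are lower.

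Other genes of the pathway were taken from 3 lists, drawn up with earlier results of these data known. Of the 11 partners, coactivators and ligase components of HIF, 10 were tested, with a median of -0.02. It was -0.10 with curated transcripts only. None passed 1.2-fold in either direction, beside 15.5% of all genes tested upward and 9.3% downward. ARNT, the obligate partner, was at 45.1 TPM in both libraries. The largest differences were those of ELOC, the elongin subunit that holds VHL, at 148.4 TPM with DMSO and 135.4 TPM with CCA-1.1 (-0.13), and ARNT2, at 9.83 and 9.04 TPM (-0.11). HIF3A, at 0.02 and 0.06 TPM, fell below the minimum.

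Of 20 glycolytic HIF targets, all were tested, 11 were higher and 9 lower, and the median was 0.02. The sign of that median is not stable, since it was -0.0079 with median-ratio scaling. Over all genes tested, 56.1% were higher and 43.8% lower. None of the 20, all averaging 10 TPM or more, passed 1.2-fold, and ENO2 lay just short of it. Among all genes with that mean, 9.45% passed it upward and 7.01% downward, beside 15.5% and 9.3% of all genes tested. The largest differences were those of ENO2, an enolase, at 309.2 TPM with DMSO and 370.8 TPM with CCA-1.1 (0.26), and PGM1, which interconverts glucose phosphates, at 27.2 and 32.5 TPM (0.25). Differences ran down to -0.20. The glycolytic and the non-glycolytic targets were thus both centred near 0 (0.07 over the 28 non-glycolytic targets among the 35 genes), and no test of a difference between them was possible.

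Of the 19 further HIF targets reported, 10 were tested, with a median of 0.13, which was 0.04 with a minimum mean of 10 TPM and 0 with none. Past 1.2-fold 3 of the 10 were higher, beside 15.5% of all genes tested, and past 2-fold 1 was, beside 1.89%. The gene past 2-fold, ANGPTL4, a secreted inhibitor of lipoprotein lipase that HIF and the lipid-sensing PPAR receptors both induce, was at 1 TPM with DMSO and 7.07 TPM with CCA-1.1, a difference of 2.01. Of its transcripts, NM_139314.3 was at 0.47 and 5.35 TPM. NM_001039667.3, at 0.53 and 1.34 TPM, was also higher in CCA-1.1 but averaged under 1 TPM. The rest of its transcripts stayed at or under 0.33 TPM. Kallisto divides shared reads by estimation, so these values are not separate observations. The other genes past 1.2-fold, named because of their values, were IGFBP3 and PPFIA4. IGFBP3, a binding protein of insulin-like growth factors, was at 229.1 and 296.7 TPM (0.37), and PPFIA4, a liprin, was at 4.52 and 6.66 TPM (0.47). ANGPTL4 and PPFIA4 averaged under 10 TPM, where the unknown read depth limits values most. EPO, NOS2, CXCR4 and KISS1R were listed at 0 in both libraries.

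**Figure D4:**
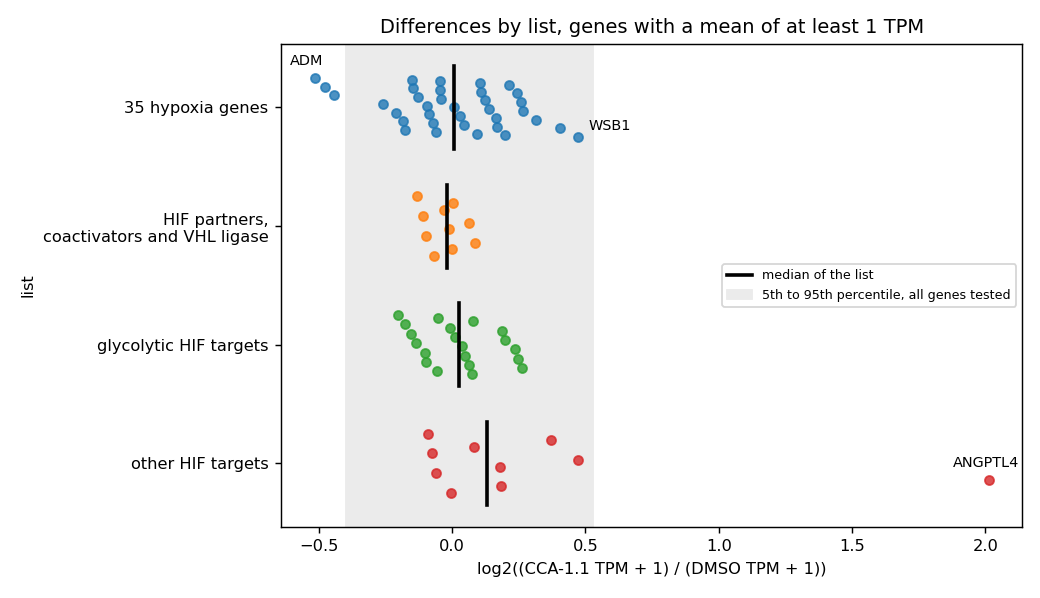
Difference between the libraries, log2((CCA-1.1 TPM + 1) / (DMSO TPM + 1)), for the 35 hypoxia genes and the tested genes of 3 further HIF lists, with 1 point per gene (the vertical offset has no meaning) and a bar at each median. The band spans the 5th to 95th percentile of all genes tested; the medians lie between -0.02 and 0.13, and ANGPTL4 at 2.01 lies far to the right of the other points.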

How the data were processed

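RNA of U87 cells treated with DMSO or CCA-1.1 for 72 h was enriched for mRNA and sequenced on an Illumina instrument, 1 library each. The authors checked reads with FastQC version 0.11.9 and MultiQC version 1.1 and quantified transcripts with Kallisto against GRCh38.p14. The deposited values are TPM per RefSeq transcript, rounded to 2 decimals, with column sums of 999999 and 1000000. Transcripts were matched to symbols with the RefSeq gene table of GRCh38.p14, 169966 of 177816 in all, and TPM was summed per gene. The authors used edgeR for differential expression, and its input is not given in the sources used here. Here no test was run, since counts cannot be had from TPM and each condition has 1 library. Calls are therefore sizes alone, past 2-fold, 1.5-fold or 1.2-fold on the log2(TPM + 1) scale, in genes averaging 1 TPM or more. TPM is a share of the library, so a gene is measured relative to all others.

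The hypoxia genes, the other lists and the sizes were chosen with earlier results of these data known. The roles that group the hypoxia genes were assigned here and are not part of their rule. Directions shared within such a group are therefore descriptions only. All 35 genes were named, with transcripts past 2-fold at a mean of at least 1 TPM. In each other list, genes past 1.5-fold were named, or otherwise the 2 with the largest differences; ARNT, HIF3A and genes at 0, as well as IGFBP3 and PPFIA4, were added after values were seen, as were the transcripts shown for other reasons. From the list of further HIF targets 1 item is not reported here, so its counts and median are those of the remaining genes and do not describe the whole list. Promoters are RefSeq sequences of GRCh38.p14. The alternatives were pseudocounts of 0.1 and 0.01 TPM, median-ratio scaling, curated (NM and NR) or mRNA (NM and XM) transcripts only, and a minimum mean of 10 TPM or none. The calculation was run on simulated data with changes well past 2-fold in genes averaging 10 TPM or more, judged at 2-fold only. That run could not show how the smaller sizes, low genes or transcript estimates behave. Python 3.11.15, numpy 2.4.6, pandas 2.3.3 and matplotlib 3.10.9 were used.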

Additional observations from a re-analysis of the deposited data

How the results depend on the processing

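Of 175 recomputed differences of the 35 genes, 172 stayed within 0.1 of the main value on the log2 scale. WSB1 turned to -0.22 with mRNA transcripts only, and KDM4B moved to -0.28 and TMEM45A to -0.04 with curated transcripts only. No gene of the 35 passed 1.5-fold under any alternative. Transcripts past 2-fold were 3 higher and 2 lower. The higher ones were 5 with a pseudocount of 0.1 and 1 with curated transcripts only. With a minimum mean of 10 TPM they were 0, and with no minimum 6. The lower ones were 4 with a pseudocount of 0.1, 3 with median-ratio scaling and 3 with no minimum. The median of the further HIF targets was 0 with no minimum and 0.04 with a minimum mean of 10 TPM, against 0.13. A change of the minimum changes which transcripts and genes are tested. The median ratio was 1.02, which shifts all genes by about -0.03. No paired analysis was possible because each condition has 1 library, and no library could be left out. The unknown read depth limits genes under 10 TPM most, among the 35 EGLN3, HIF1AN, EFNA1 and ANKRD37. Of the tested genes named from the other HIF lists, it limits ANGPTL4, PPFIA4 and ARNT2 in the same way.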
